A study of Homo sapiens with 8 samples.

Results

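The 9 regulators of early neural and cerebellar progenitors described here, of 60668 genes in the count tables, were followed in D283-OMO cells with and without OMOMYC. They comprised the paired-domain genes PAX6 and PAX3, the noncoding gene PAUPAR beside PAX6, the zinc finger genes ZIC1, ZIC2, ZIC4 and ZIC5, and the rhombic lip factors ATOH1 and EOMES. They were found by matching the Ensembl identifiers of the tables to these symbols in GENCODE, and all 9 were found. The 9 genes were chosen by what they are known to do and by their levels in this same contrast, untreated against DOX, so every difference given for them is a description without a test.

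D283 Med is an established line from a MYC-driven medulloblastoma, a malignant tumor of the cerebellum in children. D283-OMO cells carry a lentiviral, doxycycline (DOX)-inducible transgene for FLAG-tagged OMOMYC, a mini-protein that dimerizes with MYC and acts as a dominant negative. PolyA+ RNA was sequenced from 4 untreated cultures and from 4 cultures that received DOX for 72 h, described by the study as independent biological replicates. All 8 libraries therefore came from 1 engineered line that carries the transgene. Since each DOX culture also induced OMOMYC, effects of the drug and of the mini-protein cannot be told apart within these libraries. The study also gave DOX to wild-type D283 cells. By quantitative PCR it counted PAUPAR among the RNAs that rose with OMOMYC and were not affected by the drug in wild-type cells.

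PAX6 is a transcription factor with a paired domain and a homeodomain. In the developing cerebellum it marks granule cell precursors and unipolar brush cells, which arise from the rhombic lip, and it is known as a master regulator of the eye field. PAUPAR is a long noncoding RNA transcribed next to PAX6 and known to act with it on chromatin. The ZIC proteins are zinc finger factors of the dorsal neural tube and of granule cell precursors. ATOH1 specifies the granule lineage at the rhombic lip, EOMES (TBR2) marks unipolar brush cells, and PAX3 patterns the dorsal neural tube and the neural crest.

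The promoters bear on the contrast because MYC and its partner MAX bind E-box letters. RefSeq promoter windows on GRCh38.p14, from 250 bases before to 50 bases after a transcript start, were present for all 9 genes and were searched on both strands for CACGTG and for CACGCG, whose complement reads CGCGTG. Both begin with CACG, but by their letters a CACGTG site cannot overlap a site of the other motif. CACGTG stood in 7.26% of all 35116 windows and CACGCG in 11.4%, or in at least 1 window of 8.77% and 13.5% of 27305 genes. Among the 9 genes, CACGTG was found in ZIC1 alone, and CACGCG in PAX6, PAX3, ZIC5 and ATOH1. The windows of PAUPAR, ZIC2, ZIC4 and EOMES held neither. The 30 bases around the motif are shown for the pair of genes whose RNA levels per kilobase were highest in DOX libraries, with the motif in capitals and the gene's own strand printed. The ZIC1 site lies at chr3:147409296-147409325 on the plus strand, and its motif begins 57 bases before the start of the transcript. The PAX6 site lies at chr11:31818014-31818043 on the minus strand, and its motif begins 70 bases before the start in 1 of the 9 PAX6 windows. A match of letters does not show that a factor binds there.
ZIC1: cagcgtcggcagCACGTGacacctcccccc
PAX6: ccgccatgacgtCACGCGggccgggcagcc

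Library totals ranged from 46592947 to 54020506 counts in untreated and from 38390696 to 49249167 in DOX cultures. Levels are given in CPM, counts scaled to a common library size, after correction by TMM, a factor that accounts for the composition of each library. Untreated replicate 3 stood apart from the other untreated libraries, with a chi-square per degree of freedom of 32.6 to 48 against them, where those 3 differed among themselves by 3.79 to 7.81. Reads counted for MYC, which cannot be separated from those of the transgene, went from 937 ± 75.5 to 1120 ± 56.6 CPM (SD, n = 4). The textbook MYC targets CAD and NCL fell, with log2 fold changes (log2FC, DOX over untreated) of -0.48 and -0.44 and edgeR adjusted p-values of 1.33e-06 and 1.23e-06.

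A gene was tested when it exceeded 1 CPM in at least 4 of the 8 libraries, which 15222 genes did. Of the 9 regulators, PAX6, PAUPAR, ZIC1 and ZIC4 passed, and PAX6 and PAUPAR passed through the DOX libraries alone. At an adjusted p below 0.05, PAX6, PAUPAR and ZIC4 were called higher and ZIC1 lower. Across all genes tested, 38.5% were called higher and 38.1% lower. PAX6 and PAUPAR also met the stricter rule of an FDR below 0.001 with an absolute log2FC above 2, which 7.12% of tested genes met, 4.38% in the upward and 2.75% in the downward direction. Groups did not overlap for any of the 4, as for 71.7% of tested genes. Nothing is read from these counts, since the contrast itself had guided the choice of genes. In bulk RNA a change in the share of cells that express a gene and a change in RNA per cell cannot be told apart.

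**Figure D1:**
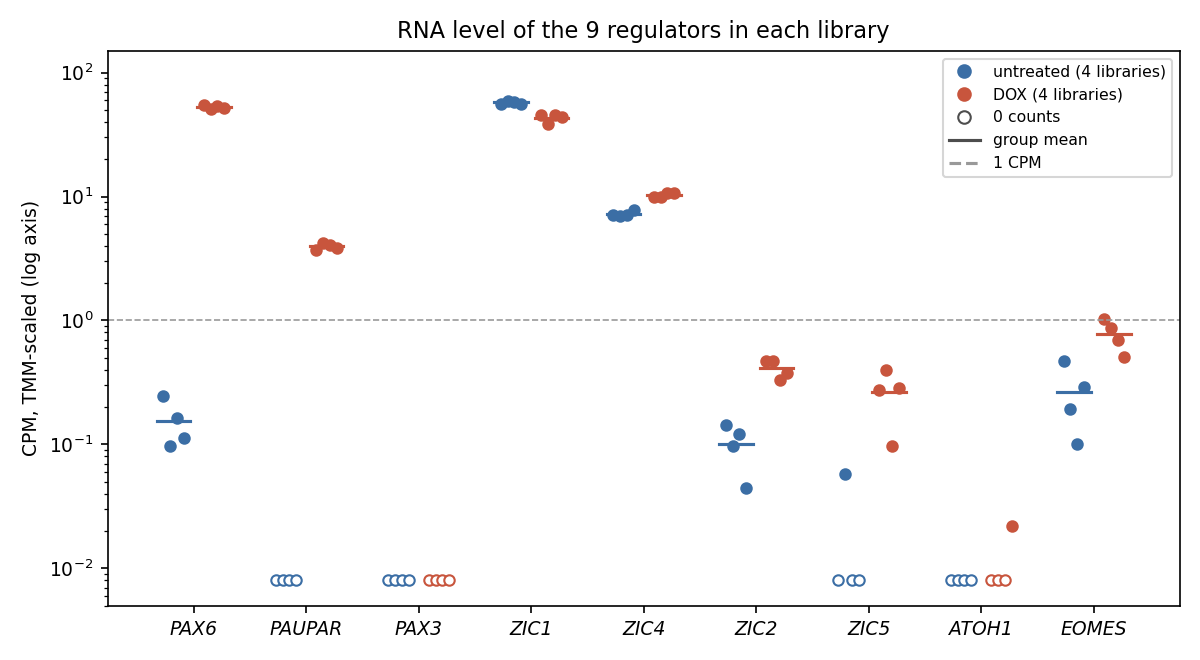
Level of each of the 9 regulators in CPM (TMM-scaled, log axis) in the 4 untreated (blue) and 4 DOX (red) libraries, with bars for group means where every library holds a count and open circles for libraries with 0 counts, placed at the bottom because 0 has no place on a log axis. PAX6 moved from at most 0.244 CPM to at least 50.6 CPM, while ZIC1 stayed above 38 CPM in all 8 libraries.

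PAX6 was close to the detection limit in untreated cells and abundant after DOX. The gene (ENSG00000007372.23) spans 31784779 to 31818062 on the minus strand of chromosome 11 in GRCh38. Untreated replicates 1 to 4 held 0.244, 0.0965, 0.162 and 0.112 CPM, from 30 counts in all. DOX replicates 1 to 4 held 54.6, 50.6, 53.98 and 52.0 CPM, from 9948 counts. All 4 DOX libraries were thus far above all 4 untreated libraries and close to each other. The means were 0.154 ± 0.0666 and 52.8 ± 1.80 CPM (SD, n = 4), and the fitted log2FC was 8.40 (SE 0.12), a 337.5-fold difference that ranked 53 among the 15222 genes tested.

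PAUPAR (ENSG00000281880.2) spans 31812307 to 32002405 on the opposite, plus strand of chromosome 11. Its start lies 5755 bases from that of PAX6, inside the PAX6 gene body, and the spans overlap over 5756 bases. No count was found in any of the 4 untreated libraries. DOX replicates 1 to 4 held 3.68, 4.25, 4.04 and 3.84 CPM, with a mean of 3.95 ± 0.247 CPM (SD, n = 4) from 740 counts. With a floor of 3 counts over each untreated library, the level with DOX was at least 64.0-fold higher. PAX6 and PAUPAR therefore went from little or no signal to a clear signal in every DOX library.

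The counts of these neighbours rest on how reads were divided between strands. RSEM splits a read that matches several genes, which leaves fractional counts. In the 20065 cases where a pair of exon-sharing genes on opposite strands both had fractional counts in a library, the sum was a whole number, to within 0.011, in 50.4%, against 16.9% of 11488 cases for pairs on the same strand. PAX6 shares 5241 exonic bases with ELP4, on the opposite strand, and 191 with PAUPAR. In untreated replicate 1 PAX6 had 12.17 and ELP4 751.83 counts, which sum to 764, and in untreated replicate 3 they had 7.52 and 841.48, which sum to 849. Their sum was whole in 3 of the 6 libraries where both had fractional counts, and not in DOX replicates 1 to 3, while PAX6 and PAUPAR had a whole sum in 0 of 4. PAUPAR also shares 363 exonic bases on its own strand with AL035078.4, which held 13.2 to 16.2 CPM in 3 untreated libraries. Some reads were thus shared across strands, and the strand setting used in counting is not given in the sources. The few untreated PAX6 counts, the 0 untreated PAUPAR counts and the lower bound of 64.0-fold all rest on how RSEM divided such reads. That division cannot be repeated from counts. PAUPAR counts were fractional in all 4 DOX libraries, so they may hold reads of PAX6 or AL035078.4. The rises of PAX6 and PAUPAR are therefore not shown to be separate measurements. ELP4 itself ranged only from 15.3 to 21.1 CPM over the 8 libraries.

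ZIC1, a granule precursor factor, was abundant in both groups and lower with DOX. The gene (ENSG00000152977.10) spans 147393422 to 147510293 on the plus strand of chromosome 3. Untreated replicates 1 to 4 held 55.8, 59.5, 58.4 and 56.3 CPM. DOX replicates 1 to 4 held 45.2, 38.5, 45.3 and 44.1 CPM. Every DOX library was below every untreated library, with DOX replicate 2 the lowest. The means were 57.5 ± 1.75 and 43.3 ± 3.22 CPM (SD, n = 4), with a log2FC of -0.41 (SE 0.06).

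ZIC4, also of the granule precursor lineage, moved the other way, although the genes overlap at their starts. The gene (ENSG00000174963.17) spans 147386046 to 147406860 on the minus strand, its span overlaps that of ZIC1 over 13439 bases, and their exons share 176. Untreated replicates 1 to 4 held 7.08, 6.95, 7.04 and 7.71 CPM, and DOX replicates 1 to 4 held 9.95, 9.82, 10.8 and 10.8 CPM. All 4 DOX libraries were above all 4 untreated libraries. The means were 7.20 ± 0.349 and 10.3 ± 0.510 CPM (SD, n = 4), with a log2FC of 0.52 (SE 0.07). Scaled by library size alone, the log2FC of ZIC1 was -0.28 and the log2FC of ZIC4 was 0.65, so neither direction depended on TMM. In 3 libraries both genes had fractional counts, and in all 3 their sum was whole.

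ZIC2 and ZIC5, which lie head to head on chromosome 13, were near the floor and were not tested. ZIC2 (99981772 to 99986773, plus strand) held 0.143, 0.0965, 0.122 and 0.0447 CPM in untreated replicates 1 to 4. It held 0.472, 0.472, 0.332 and 0.373 CPM in DOX replicates 1 to 4, so the groups did not overlap. The summed counts were 20 and 77, a depth-scaled ratio of 3.995 with an exact 95% counting interval of 2.418 to 6.9. ZIC5 (99962964 to 99971909, minus strand) had 3 counts, all in untreated replicate 2, against 14, 16, 5 and 13 in DOX replicates 1 to 4. Its ratio of 16.6 had an interval of 5.351 to 83.34. These intervals cover counting error only, not the spread between cultures. Even with DOX, ZIC2 reached 0.412 ± 0.0712 and ZIC5 0.264 ± 0.124 CPM (SD, n = 4).

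EOMES, the unipolar brush cell factor (27715949 to 27722711, minus strand of chromosome 3), was low in both groups and was not tested. Untreated replicates 1 to 4 held 0.468, 0.193, 0.101 and 0.291 CPM. DOX replicates 1 to 4 held 1.02, 0.870, 0.702 and 0.505 CPM. The lowest DOX library was only just above the highest untreated library, and 1 DOX library exceeded 1 CPM. The summed counts were 51 and 146, a depth-scaled ratio of 2.971 with an exact 95% counting interval of 2.146 to 4.171.

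ATOH1 and PAX3 were at or near 0 counts. ATOH1 (93828753 to 93830964, plus strand of chromosome 4) had a lone count, in DOX replicate 4. PAX3 (222199888 to 222298996, minus strand of chromosome 2) had 0 counts in all 8 libraries. For PAX3, 0 counts allow a level of up to 0.0154 CPM over the untreated and 0.0160 CPM over the DOX libraries. The untreated limit holds for ATOH1 too, and its count in DOX replicate 4 corresponds to 0.0220 CPM.

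Levels can be compared between genes only per length of transcript. Per kilobase of all exons of a gene, the order in untreated libraries was ZIC1 at 8.44, ZIC4 at 0.840, EOMES at 0.0720, ZIC2 at 0.0306, PAX6 at 0.00739 and ZIC5 at 0.00312 CPM per kb, with PAUPAR, ATOH1 and PAX3 at 0. The ranges of EOMES and ZIC2 overlapped, as did those of PAX6 and ZIC5, and ZIC5, with 0 counts in 3 libraries, overlapped the genes at 0. ZIC1, ZIC4 and EOMES did not overlap with each other, nor did ZIC2 with PAX6. In DOX libraries the order was ZIC1 at 6.36, PAX6 at 2.54, ZIC4 at 1.21, PAUPAR at 0.462, EOMES at 0.212, ZIC2 at 0.125 and ZIC5 at 0.0569 CPM per kb. EOMES and ZIC2 overlapped by a narrow margin, at 0.138 to 0.280 and 0.1002 to 0.143 CPM per kb, and the 4 genes above them did not overlap. The place of PAX6 depended on the length taken, because its exons add up to 20812 bases whereas its 28 basic transcripts have a median of 2564.5 bases. Per kilobase of the median transcript, a scale chosen after the data were seen, PAX6 came first in DOX libraries at 20.6 and ZIC1 second at 8.26 CPM per kb.

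The genes whose profiles over the 8 libraries came closest were ranked by Euclidean distance of centred log2(CPM + 0.1) values. For PAX6 these were AJAP1, an adherens junction-associated protein gene that went from 0.0564 to 38.3 CPM, LMCD1-AS1 and AL449106.1, at distances of 0.58, 0.65 and 0.68. For PAUPAR they were the cadherin gene CDH6, the lysosomal fucosidase gene FUCA1 and the pseudogene HSPD1P6, at 0.27 to 0.34. PAUPAR had no untreated counts, so its untreated values were the added 0.1 CPM alone and these distances depend on that constant. FUCA1, by contrast, was expressed in both groups, at 11.4 CPM untreated and 411 CPM with DOX. ZIC1 was closest to the sterol regulator SREBF2, the receptor gene ERBB2 and SCAMP4, at 0.11 to 0.12. ZIC4 was closest to the mitochondrial fusion gene MFN2, STAT6 and WDR37, each at 0.12. None of these genes lies on the same chromosome as the regulator it stands beside.

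The surroundings of the 9 genes were examined next. Within 500 kb of their starts lay 74 other annotated genes, of which 14 were tested. Of these, 7 rose, 1 fell and 6 did not pass, and none met the stricter rule. Their median log2FC was 0.29, beside 0.01 for all genes tested. Across all genes tested 38.5% rose and 38.1% fell. Around PAX6 and PAUPAR, 3 of 5 tested genes rose. These were DNAJC24, a cochaperone gene, at a log2FC of 0.95 (SE 0.05, edgeR adjusted p = 8.02e-09), IMMP1L, of the mitochondrial inner membrane peptidase, at 0.93 (SE 0.07, edgeR adjusted p = 2.36e-07), and the Elongator subunit gene ELP4 at 0.35 (SE 0.05, edgeR adjusted p = 9.68e-05). ELP4 shares exonic bases and fractional reads with PAX6, so its value is not separate from that of PAX6. DNAJC24 and IMMP1L lie on opposite strands and had fractional counts that summed to whole numbers in all 8 libraries, so their values are not separate measurements. RCN1, on the other side, had -0.10 (edgeR adjusted p = 0.0929), and its sign turned to 0.02 with scaling by library size alone. AL035078.4, a readthrough of PAUPAR and RCN1, was listed at 0 in untreated replicate 3 and at 13.2 to 16.2 CPM in the other untreated libraries.

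Near EOMES, both tested genes rose. SLC4A7, a bicarbonate transporter gene, had a log2FC of 1.57 (SE 0.12, edgeR adjusted p = 2.78e-07) and the kinase gene NEK10 1.40 (SE 0.17, edgeR adjusted p = 1.43e-05). NEK10, at 0.467 CPM untreated, passed the filter through the DOX libraries alone. Around ZIC2 and ZIC5, CLYBL rose (0.49, edgeR adjusted p = 9.21e-06) and the other 3 tested genes did not pass. None of the 7 genes near ZIC1 and ZIC4 was expressed highly enough to be tested. Around the silent PAX3, FARSB fell and SGPP2 rose, with log2FC of -0.52 and 0.23 and edgeR adjusted p-values of 8.33e-07 and 0.0264.

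**Figure D2:**
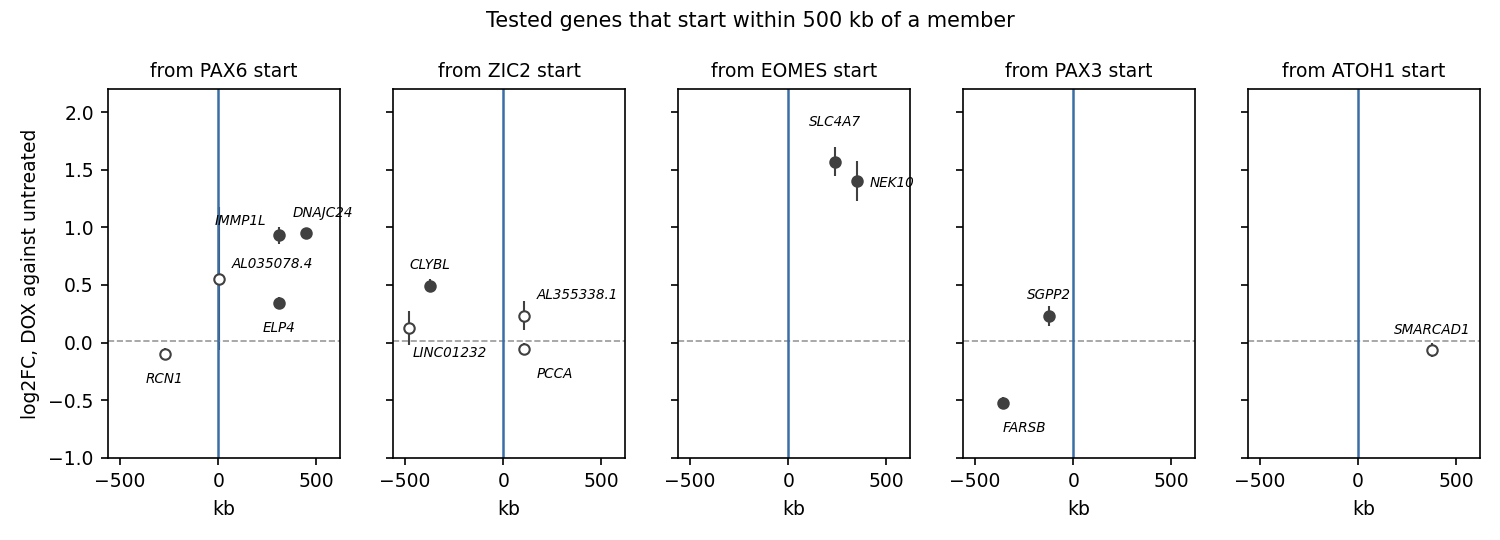
Log2FC with its SE for the 14 tested genes that start within 500 kb of PAX6, ZIC2, EOMES, PAX3 or ATOH1, against distance in kb, positive in the direction in which that regulator is transcribed. Filled points have an adjusted p below 0.05, and the values lie between -0.52 and 1.57, with most genes near PAX6 above the dashed median of all genes.

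Related genes outside the list are given for context only, since PAX6 was chosen with this contrast known. Of 7 other PAX genes, PAX5 alone was tested, and it fell from 2.06 ± 0.138 to 1.24 ± 0.138 CPM (SD, n = 4), with a log2FC of -0.74 (SE 0.12, edgeR adjusted p = 0.000144). PAX9 was next in level, at 0.460 and 0.783 CPM, and the remaining 5 were at or under 0.0922 CPM in both groups. The zinc finger genes GLIS2 and GLIS3, which are close to the ZIC family in sequence, rose with log2FC of 0.42 (SE 0.05, edgeR adjusted p = 8.64e-06) and 1.42 (SE 0.18, edgeR adjusted p = 2.22e-05). GLIS3, at 0.621 CPM untreated, passed the filter through the DOX libraries alone.

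Genes of the lineages in which these regulators act moved in both directions. Of 23 rhombic lip and granule cell genes, 18 were tested, 7 rose, 9 fell and 2 did not pass, with a median log2FC of -0.26. ASTN1, which guides granule neurons along glia, rose with a log2FC of 2.83 (edgeR adjusted p = 8.73e-09). At 0.571 CPM untreated, it passed the filter through the DOX libraries alone. GABRA6, a GABA receptor subunit of mature granule cells, fell with -2.70 (edgeR adjusted p = 7.76e-08). At 0.414 CPM with DOX, it passed through the untreated libraries alone. NEUROD1, a differentiation factor of that lineage, fell from 94.2 ± 3.58 to 20.1 ± 0.806 CPM (SD, n = 4), for a log2FC of -2.23 (edgeR adjusted p = 6.09e-12). The list as a whole had no common direction, and a link of these changes to PAX6 was not tested.

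Of 10 genes of the unipolar brush cell lineage, 6 were tested, 2 rose and 4 fell, with a median of -0.48. PLCB4, a phospholipase gene of glutamate receptor signaling, rose from 0.0602 CPM, 12 counts in all, to 5.13 CPM. Its log2FC was 6.32 (edgeR adjusted p = 9.57e-11), and it passed the filter through the DOX libraries alone. Named after their values were seen, OTX2 and the cortical T-box factor TBR1 fell with log2FC of -1.04 and -0.37. TBR1, a relative of EOMES, thus stood at 691 ± 37.9 and 534 ± 17.1 CPM (SD, n = 4). Of 17 genes of the ventricular zone and its GABAergic lineage only 4 were tested. FOXP2, a Purkinje cell factor, rose with 2.69 (edgeR adjusted p = 3.35e-11), and 3 fell, led by KIRREL2 with -2.29 (edgeR adjusted p = 1.39e-09).

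Eye field, cortical and endocrine regulators known to act with or under PAX6 showed no common direction. Of 20, 9 were tested, 5 rose and 4 fell, with a median of 0.35. The corepressor TLE4 and the beta cell factor MAFA rose with log2FC of 3.76 and 3.04 (edgeR adjusted p = 1.25e-12 and 3.29e-08). MAFA, at 0.242 CPM untreated, passed the filter through the DOX libraries alone. Of 13 neural crest and melanocyte genes that are known to act with or under PAX3, 5 were tested, 2 rose and 3 fell, with a median of -0.98. MITF rose with 2.47 (edgeR adjusted p = 3.82e-11) and the melanin enzyme gene DCT fell from 255 ± 26.7 to 5.35 ± 0.139 CPM (SD, n = 4), for a log2FC of -5.58 (edgeR adjusted p = 3.84e-13). PAX3 itself had 0 counts in both groups, and its relation to these changes was not tested.

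**Figure D3:**
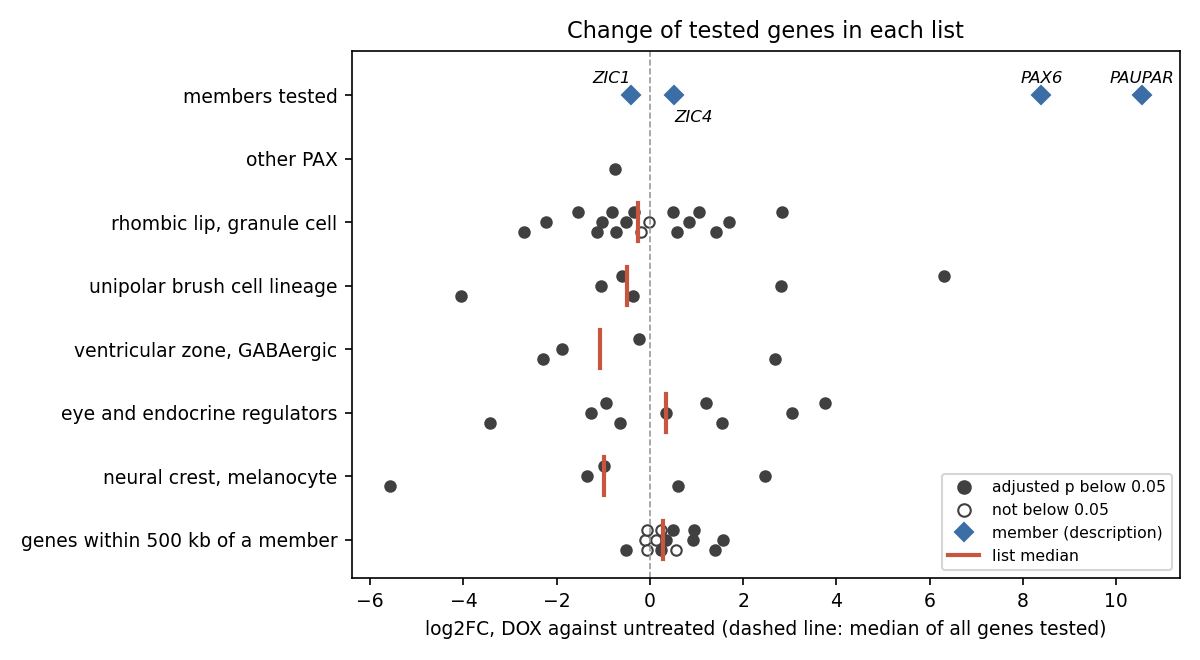
Log2FC of each tested gene, DOX against untreated, for the 4 tested regulators (diamonds) and for the lists of related, lineage and neighbouring genes (circles, filled at an adjusted p below 0.05), with red bars at list medians. The PAX6 and PAUPAR values of 8.40 and 10.56 lie beyond every gene of the lists drawn. The regulators were chosen with this contrast known, so this gap is not a result. CDH5, of the endothelial list that is not drawn, had 9.48. The PAUPAR and CDH5 values depend on the prior count because they are fitted against 0 counts.

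EOMES and ATOH1 also serve as markers of medulloblastoma subgroups, EOMES of Group 4 and ATOH1 of the Sonic Hedgehog (SHH) subgroup. Apart from them, 3 of the 5 Group 4 markers were tested and all 3 rose. KHDRBS2 stood at 1.53 ± 0.215 CPM untreated and 83.5 ± 2.48 CPM with DOX (SD, n = 4), for a log2FC of 5.77 (edgeR adjusted p = 1.82e-13), and UNC5D had 3.52 (edgeR adjusted p = 3.3e-10). Of the 4 other SHH markers, PDLIM3 and SFRP1 were tested and rose, with log2FC of 3.04 and 2.96 (edgeR adjusted p = 4.47e-13 and 8.39e-07). SFRP1, at 0.254 CPM untreated, passed the filter through the DOX libraries alone. All 6 Group 3 markers were tested and 5 fell, led by NRL with -3.55, IMPG2 with -3.01 and NPR3 with -2.57 (edgeR adjusted p = 1.96e-11, 1.71e-10 and 3.5e-11). The sixth, EYS, had 0.23 (edgeR adjusted p = 0.046), a call that was lost when any library other than untreated replicate 2 was left out. TNC, the tested marker among 5 of the WNT subgroup, rose with 3.30 (edgeR adjusted p = 1.62e-09). EOMES, at 0.775 ± 0.223 CPM with DOX (SD, n = 4), was therefore higher beside higher Group 4 markers, and ATOH1 was at 1 count beside higher PDLIM3 and SFRP1.

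**Figure D4:**
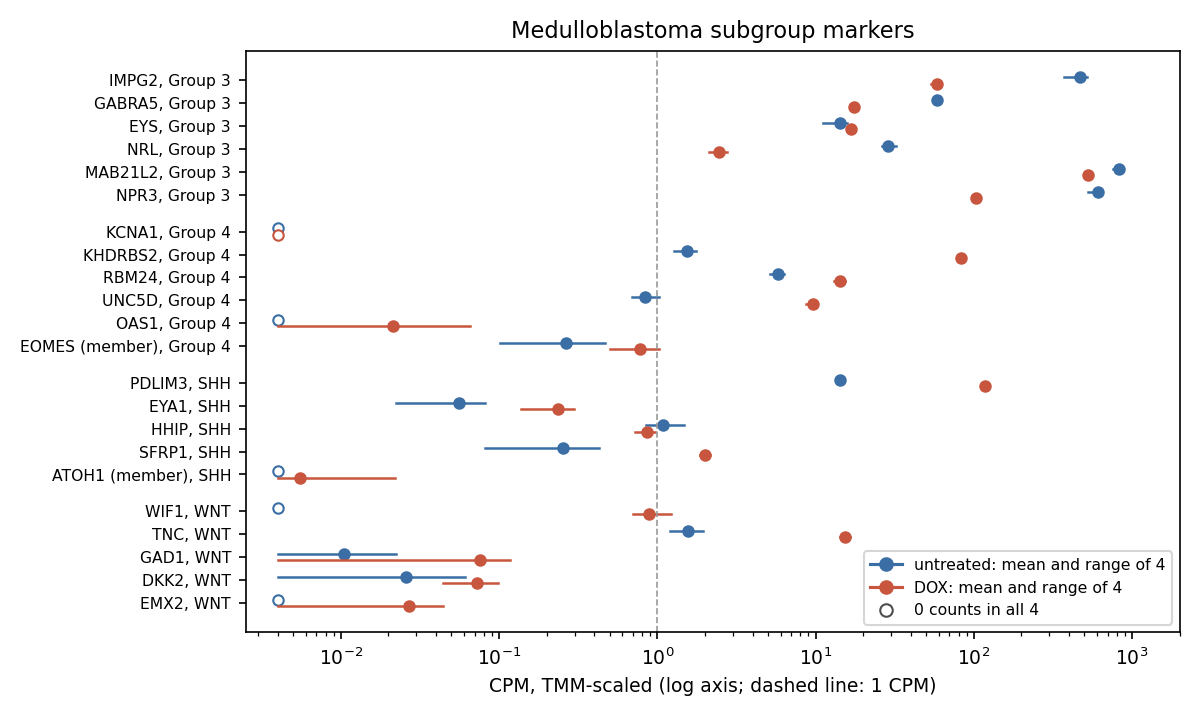
Level in CPM (TMM-scaled, log axis) of medulloblastoma subgroup markers, with points for group means and lines for the range of 4 libraries. A line that reaches the left end includes a library with 0 counts, and open circles mark 0 counts in all 4. Group 3 markers other than EYS are lower with DOX, and KHDRBS2, UNC5D, PDLIM3 and TNC are higher.

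Markers of other cell types were mostly near 0. Each list held 4 genes, of which 3 astrocyte, 3 oligodendrocyte, 4 microglia, 2 endothelial and 2 fibroblast genes had means under 1 CPM in both groups, and MOG had 0 counts throughout. The astrocyte list fell from 47.7 to 51.6 CPM to 15.5 to 18.1 CPM, mostly from SLC1A3. The microglia list held 0.521 to 0.791 and 0.741 to 0.994 CPM, the endothelial list 3.41 to 4.07 and 2.69 to 3.69 CPM and the fibroblast list 23.4 to 24.4 and 22.0 to 26.7 CPM. The tested genes were 1 astrocyte, 1 oligodendrocyte, 2 endothelial and 2 fibroblast genes. CDH5, an endothelial cadherin gene, rose from 0 counts to 1.85 ± 0.237 CPM (SD, n = 4), at least 29.96-fold higher (edgeR adjusted p = 8.5e-08), and VWF fell (edgeR adjusted p = 1.42e-06). Of the fibroblast genes 1, PDGFRA, rose (log2FC 0.54) and COL1A1 did not pass, a count that was 0 without DOX replicate 3 or 4 and 2 without DOX replicate 2 or with scaling by library size alone. The part of these genes in the values of the 9 regulators was not tested.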

How the data were processed

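PolyA+ RNA of D283-OMO cells, 4 untreated and 4 DOX (72 h) cultures, was sequenced as paired reads from a stranded kit. The authors used Trim Galore, STAR with GRCh38 and RSEM, and deposited expected counts per gene, which are not normalized and already divide reads that match several genes. Versions of these tools are not given in the sources used here. Groups came from the sample titles.

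Expected counts were rounded to whole numbers and tested with edgeR 4.0.16 in R 4.3.3 (TMM, quasi-likelihood test, no covariates, Benjamini-Hochberg adjustment over the 15222 genes above 1 CPM in 4 or more of 8 libraries). The SE of a log2FC was taken from it and the F statistic. Calls used an adjusted p below 0.05, and an FDR below 0.001 with an absolute log2FC above 2. A floor of 3 counts per library and exact 95% intervals cover counting error only. The script was tested on simulated data.

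Names and coordinates came from GENCODE v29 (GRCh38), to which 58561 of 60668 identifiers matched. Promoter sequences came from RefSeq. The 9 regulators and the gene lists were chosen with earlier results of these data known. Genes were named by rule: all 9, tested PAX and ZIC relatives, up to 3 of each other list that met the stricter rule by absolute log2FC, the 3 nearest profiles, MYC, CAD and NCL. Some genes that this rule names are not reported here. The genes near the 9 regulators, PAX9, OTX2, TBR1, EYS, MOG, SLC1A3, VWF, PDGFRA and COL1A1 fell outside it and were picked with their values known. Alternatives were DESeq2 1.42.0, other scalings and filters, the replicate number as a block and leaving out each library.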

Additional observations from a re-analysis of the deposited data

Results flagged for a closer look

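Among 105 groups of 4 libraries, 5 held a library far from the others by Dixon's test, where chance gives about 5.2. ZIC5 had 0.0579 CPM in untreated replicate 2 and 0 in the other 3. ATOH1 had 0.0220 CPM in DOX replicate 4, from 1 count, and 0 in the other 3. In untreated replicate 3, IMPG2 was at 373.7 CPM against 498.1 to 516.0 in the other 3, and NPR3 at 525.9 CPM against 630.7 to 643.1. ELP4, which shares exons with PAX6, was at 19.3 CPM in DOX replicate 4 against 20.8 to 21.1 in the other DOX libraries.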

How the results depend on the processing

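PAX6, PAUPAR, ZIC4 and ZIC1 kept their direction under every scaling, test and left-out library tried. Without a filter on low counts 6 of the 9 regulators were called higher, since ZIC2, ZIC5 and EOMES then entered, and with a filter of over 1 CPM in 5 or more libraries only 1 was, with 0 by the stricter rule, since PAX6 and PAUPAR pass through the 4 DOX libraries alone. Leaving out each library gave 3 to 3 regulators called higher, 1 to 1 lower and 2 to 2 by the stricter rule. These fits kept the genes that had passed the filter over all 8 libraries. PAX6 and PAUPAR would not have passed it again without a DOX library, so these counts do not test the filter. Among the 14 tested neighbours, genes called lower went from 1 to 2 without a filter and ranged from 1 to 2 over the left-out libraries, with 2 without untreated replicate 3 or DOX replicate 2, and 1 met the stricter upward rule without a filter. RCN1 turned from -0.10 to 0.02 with library size alone, which moved the median log2FC of all genes from 0.01 to 0.14, and passed the threshold at -0.13 without DOX replicate 2. PAX6 ranked 2 among the regulators in DOX libraries per kilobase of all exons and 1 per kilobase of the median transcript. Of 755 values of single genes under alternatives, 753 kept their direction and side of the threshold, all but the pair given for RCN1. These values cover 52 results, the 4 tested regulators included, but not EYS, PDGFRA, COL1A1 or most genes near the regulators. The calls of EYS and of the fibroblast genes did move, as given above. Of 690 list counts 650 stayed within 1.5 times.

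The replicate numbers are shared by both groups. Deviations of libraries with the same number correlated at 0.2, 0.182, 0.314 and -0.24 for replicates 1 to 4, beside a mean of -0.041 for other pairs. These mixed values do not settle whether the numbers mark pairs. The main fit did not use them as pairs. With the replicate number as a block, 3 regulators were called higher and 1 lower, 2 met the stricter rule, the log2FC of PAX6 was 8.40, the log2FC of PAUPAR was 10.57, the log2FC of ZIC1 was -0.41 and the log2FC of ZIC4 was 0.52. Depth limits ATOH1, PAX3, ZIC5 and untreated PAX6, whose values rest on few counts.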
